A study of Mus musculus with 4 samples.

Results

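The p38 mitogen-activated protein kinase (MAPK) module was described in mouse liver through 10 of its kinase genes, chosen by symbol among the 35275 genes of the read count table. They are the MAP kinase kinase kinases Map3k5 (ASK1) and Map3k7 (TAK1), the MAP kinase kinases Map2k3 (MKK3) and Map2k6 (MKK6), the p38 kinases Mapk14 (p38 alpha), Mapk11 (p38 beta), Mapk12 (p38 gamma) and Mapk13 (p38 delta), and the effector kinases Mapkapk2 (MK2) and Mapkapk3 (MK3). Each symbol was listed once. With a minimum of 1 CPM (counts per 1e+06 counted reads, with library sizes scaled by the TMM method) in at least 1 library, 9 of the 10 passed, as did 12180 of all genes; Mapk13 did not.

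All mice were females carrying the Apoa2c allele, which encodes the amyloidogenic form of apolipoprotein A-II, and livers were taken at 26 weeks of age after a 16-week intervention. The groups were VS (vehicle injected, sedentary), VI (vehicle injected, interval training on a treadmill, IT), FS (injected with AApoAII amyloid fibrils, sedentary) and FI (injected with the same fibrils, IT). The strain is AKR/J in the sample labels, with a genotype congenic for Apoa2c, and R1.P1-Apoa2c on a SAMR1 background in the paper. The livers of 4 mice were combined for each group ahead of RNA extraction, so that each group was 1 library with no replicate; the differences between libraries below have no test, and the intervals given with them are 95% intervals of counting error only, since reads were not counted by molecular identifiers and the spread between mice was not measured.

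Total counts were between 23442935 in VS and 28814802 in FS, so that a count of 0 allowed up to 0.127 CPM in the shallowest library. Summed over 5 genes, hepatocyte markers lay between 143000 CPM in VS and 164000 CPM in FI, and Alb alone made up 82.9% to 84.4% of the sum. Of these 5 genes, 4 were highest in FI, while Ttr was highest in VS (7283 CPM, against 4857 CPM in FI). Skeletal muscle markers (13 genes) summed to 79.9, 10.4, 1.02 and 0.827 CPM in VS, VI, FS and FI, and Tnnc2 among them was at 0 in every library. Kupffer cell markers (7 genes) summed to 238, 289, 360 and 357 CPM in VS, VI, FS and FI, and neutrophil markers (9 genes, mostly Prtn3 in FS and FI) to 2.63, 3.53, 18.4 and 13.8 CPM. In RNA from whole tissue, fewer cells of a type and less RNA per cell cannot be told apart.

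The p38 pathway is a cascade of protein kinases that answers cellular stress and inflammatory signals. MAP3Ks phosphorylate the MAP2Ks MKK3 and MKK6, these phosphorylate p38 on a threonine and a tyrosine, and active p38 passes the signal to kinases such as MK2, which phosphorylates the small heat shock protein HSPB1, and to transcription factors including p53. The study followed phosphorylated p38 and HSPB1 protein in these livers, and asked how exercise and amyloid deposition act on them; the RNA values below are levels of the kinases' transcripts, and hold no measure of phosphorylation.

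Both the p38 kinases and their activating MAP2Ks are switched on at a short loop of the protein, whose coding DNA is shown here because it is what makes these 4 genes p38 kinases and Map2k3 and Map2k6 a pair, and because it shows how far the genes can be told apart by reads. Each stretch of 39 bases was read 5′ to 3′ on the coding strand from GENCODE M21 transcripts (GRCm38). In the p38 kinases, capitals mark the codons of the threonine, glycine and tyrosine of the activation loop, which are codons 180 to 182 (183 to 185 in Mapk12) and lie in exon 7.
Mapk14, chr17:28728384-28728422, plus strand: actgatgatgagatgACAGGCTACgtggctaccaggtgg
Mapk11, chr15:89145851-89145889, minus strand: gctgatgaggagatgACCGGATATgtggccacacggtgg
Mapk12, chr15:89134661-89134699, minus strand: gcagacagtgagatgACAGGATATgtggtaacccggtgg
Mapk13, chr17:28776329-28776367, plus strand: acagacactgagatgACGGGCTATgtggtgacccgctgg
In the MAP2Ks, capitals mark the codons from the serine to the threonine that MAP3Ks phosphorylate, codons 218 to 222 in Map2k3 and 207 to 211 in Map2k6, in exon 8 of each.
Map2k3, chr11:60946715-60946753, plus strand: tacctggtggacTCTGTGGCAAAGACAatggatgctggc
Map2k6, chr11:110496410-110496448, plus strand: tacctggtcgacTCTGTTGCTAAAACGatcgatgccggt
Over the whole coding sequence, Map2k3 and Map2k6 were identical at 72.0% of aligned bases, Mapk14 and Mapk11 at 70.7%, Mapk12 and Mapk13 at 70.1%, and the other p38 pairs at 64.7% to 66.1%. The longest stretch shared by the transcripts of any 2 members of a layer was 27 bases, between Mapkapk2 and Mapkapk3. The p38 genes lie in 2 pairs on the genome, in the coordinates listed with the counts (mm10). Mapk14 (chr17:28691342-28748404, plus strand) is followed by Mapk13 (chr17:28769307-28778698, plus strand) after 20902 bases, and Mapk12 (chr15:89130585-89140703, minus strand) and Mapk11 (chr15:89142486-89149606, minus strand) are 1782 bases apart.

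Ratios of 1 library to another are written FI/FS, for the FI library over the FS library, and given as log2 of TMM-scaled counts. Levels are first compared per length, as deposited FPKM (counts divided by the length of the gene and by the total of the library). In mean FPKM over the 4 libraries the order was Map2k3 at 28.8, Mapkapk2 at 25.8, Mapk14 at 21.7, Map2k6 at 13.1, Map3k5 at 11.6, Map3k7 at 6.36, Mapk12 at 2.28, Mapk11 at 0.564, Mapkapk3 at 0.336 and Mapk13 at 0.204. The median of the 12180 genes that passed was 4.45 FPKM, so that 6 members lay above it and 4 below. Neighbours in this order overlapped in their ranges over the libraries down to Map3k5, and again from Mapk11 to Mapk13. The range of Map3k5 (8.68 to 16.5 FPKM) did not overlap with that of Map3k7 (5.72 to 7.09), nor that of Map3k7 with that of Mapk12 (1.92 to 2.87), nor that of Mapk12 with that of Mapk11 (0.413 to 0.768).

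Within layers, Mapk14 made up 86.7%, 88.8%, 85.8% and 89.1% of the FPKM of the 4 p38 genes in VS, VI, FS and FI. Mapk12 made up 8.1% to 10.8%, Mapk11 1.74% to 3.63% and Mapk13 0.463% to 1.1%. Mapkapk2 held 98% to 99.2% of the FPKM of the effector pair. The 2 upper layers were less one-sided, and both had another composition in FI than in the other libraries. Map2k6 was 27.7%, 27.3%, 27.3% and 40.7% of the MAP2K pair in VS, VI, FS and FI. Map3k5 was 60.3%, 62.2%, 60.5% and 72.4% of the MAP3K pair in the same order.

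**Figure D1:**
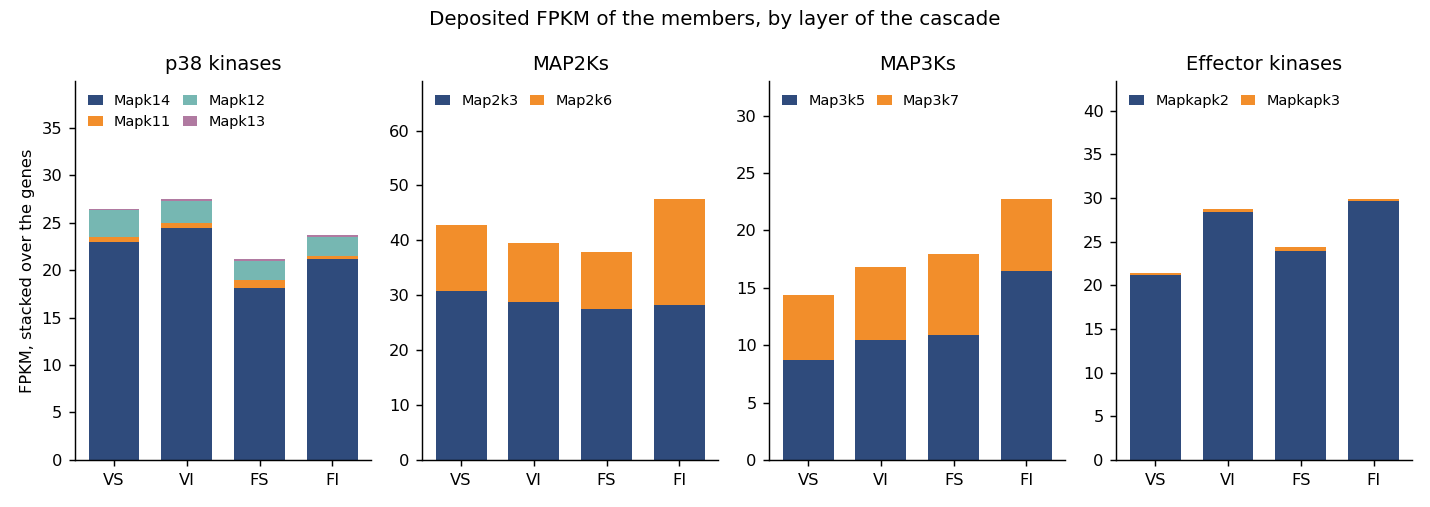
Deposited FPKM of the 10 genes, stacked within each layer of the cascade (vertical axis, FPKM; horizontal axis, the 4 pooled libraries, 1 bar each, with no replicate error). Mapk14 and Mapkapk2 fill most of their layers in every library, and the Map2k6 part of the MAP2K bar is 40.7% in FI against 27.3% to 27.7% in the others.

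Map2k6 was the member that stood apart most in FI. Its protein, MKK6, is a MAP2K with a narrow choice of targets, the p38 kinases. Its level was 24.6, 22.6, 21.1 and 41.5 CPM in VS, VI, FS and FI, from 580, 551, 622 and 1004 counts. The first 3 libraries lay close together and FI was far above each of them. FI was 1.97 times FS (1.78 to 2.18; log2 ratio 0.98, 0.83 to 1.12) and 1.83 times VI (log2 ratio 0.88, 0.72 to 1.03). In the vehicle livers the IT library was not higher (VI/VS, log2 ratio −0.12, −0.29 to 0.05), and without IT the fibril library was slightly lower than the vehicle library (FS/VS, log2 ratio −0.22, −0.39 to −0.06). Among all genes that passed, the FI/FS ratio of Map2k6 was at percentile 98.2.

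Map2k3 encodes MKK3, the other MAP2K dedicated to p38. Its level was 67.3, 63.5, 59.1 and 63.6 CPM in VS, VI, FS and FI, a narrow range with VS highest and FS lowest. Its log2 ratio was −0.09 (−0.19 to 0.02) in VI/VS, 0.10 (0.01 to 0.20) in FI/FS, −0.19 (−0.29 to −0.09) in FS/VS and 0.00 (−0.10 to 0.10) in FI/VI. Since both MAP2Ks were counted in the same library, their ratio does not depend on how libraries are scaled. The count of Map2k6 per count of Map2k3 was 0.365 (0.331 to 0.401) in VS, 0.356 (0.323 to 0.393) in VI and 0.356 (0.325 to 0.391) in FS. In FI it was 0.653 (0.602 to 0.707). The first 3 intervals overlapped with one another and none of them reached that of FI.

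Map3k5 encodes ASK1, a MAP3K that is held inactive by thioredoxin and acts under oxidative and endoplasmic reticulum stress. Its level was 47.0, 57.3, 57.7 and 92.2 CPM in VS, VI, FS and FI, from 1109 to 2230 counts. VS was lowest, VI and FS were close together and FI was well above both. FI was 1.6 times FS (log2 ratio 0.68, 0.58 to 0.77) and 1.61 times VI (log2 ratio 0.69, 0.59 to 0.78), whereas VI/VS had a log2 ratio of 0.29 (0.17 to 0.40) and FS/VS of 0.30 (0.19 to 0.41). Unlike Map2k6, Map3k5 was thus higher with IT in vehicle livers and higher with fibrils in sedentary livers as well, each by less than in the comparisons with FI.

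Map3k7 encodes TAK1, the MAP3K that connects cytokine and Toll-like receptors to p38, JNK and NF-kappa B. Its level was 32.8, 36.9, 39.9 and 37.2 CPM in VS, VI, FS and FI. The order differed from that of Map3k5, with FS highest and FI close to VI. The log2 ratio was 0.17 (0.03 to 0.31) in VI/VS, −0.10 (−0.23 to 0.02) in FI/FS, 0.28 (0.15 to 0.42) in FS/VS and 0.01 (−0.13 to 0.14) in FI/VI. All 7 Kupffer cell markers were also lowest in VS, with 3 of them highest in FS and 4 in FI, and their part in the Map3k7 and Map3k5 values was not tested. One listed gene overlaps Map3k7, the pseudogene Gm11926 on the opposite strand over 430 bases, with a count of 0 in each library.

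The regions before the starts of Map2k6 and Map3k5 are printed, as the members with the 2 largest FI/VI ratios above 0, to show how unlike they are in base composition. They are the 250 bases before the RefSeq start (GRCm38.p6), with matches to the searched motifs in capitals.
Map2k6, chr11:110398852-110399101, plus strand: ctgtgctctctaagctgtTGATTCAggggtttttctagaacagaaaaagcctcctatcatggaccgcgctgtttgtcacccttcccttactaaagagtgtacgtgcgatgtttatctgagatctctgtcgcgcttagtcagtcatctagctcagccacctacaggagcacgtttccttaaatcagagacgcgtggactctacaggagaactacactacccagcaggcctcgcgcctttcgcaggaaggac
Map3k5, chr10:19934276-19934525, plus strand: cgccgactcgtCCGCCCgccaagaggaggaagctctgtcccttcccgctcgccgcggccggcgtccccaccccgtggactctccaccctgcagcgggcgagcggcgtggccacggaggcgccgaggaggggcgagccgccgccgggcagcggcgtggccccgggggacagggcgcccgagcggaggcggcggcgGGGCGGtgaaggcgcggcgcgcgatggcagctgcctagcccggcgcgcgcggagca
The Map2k6 sequence had 50.4% G and C and no GC box (GGGCGG, searched on both strands, as were all motifs), and its 1 match was an AP-1 site (TGANTCA). The Map3k5 sequence had 80.8% G and C and 2 GC boxes. Over all 32851 mouse promoters of that length in the table, the median was 52.4% G and C, 32.7% held a GC box and 6.7% an AP-1 site. RefSeq promoters were found for all 10 members, and 7 of the 10 held a GC box, all but those of Map2k6, Mapkapk2 and Mapkapk3. None held a TATA box (TATAAA, 12.4% of all promoters), a cyclic AMP response element (TGACGTCA, 1.5%) or a STAT site (TTCNNNGAA, 7%), and the E-box CACGTG (6% of all promoters) was found in that of Mapk12 alone. RefSeq lists 3 promoters for Map2k6, of which the one nearest to the gene's start was used. These are matches of letters in a fixed window, and binding was not measured in this study.

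**Figure D2:**
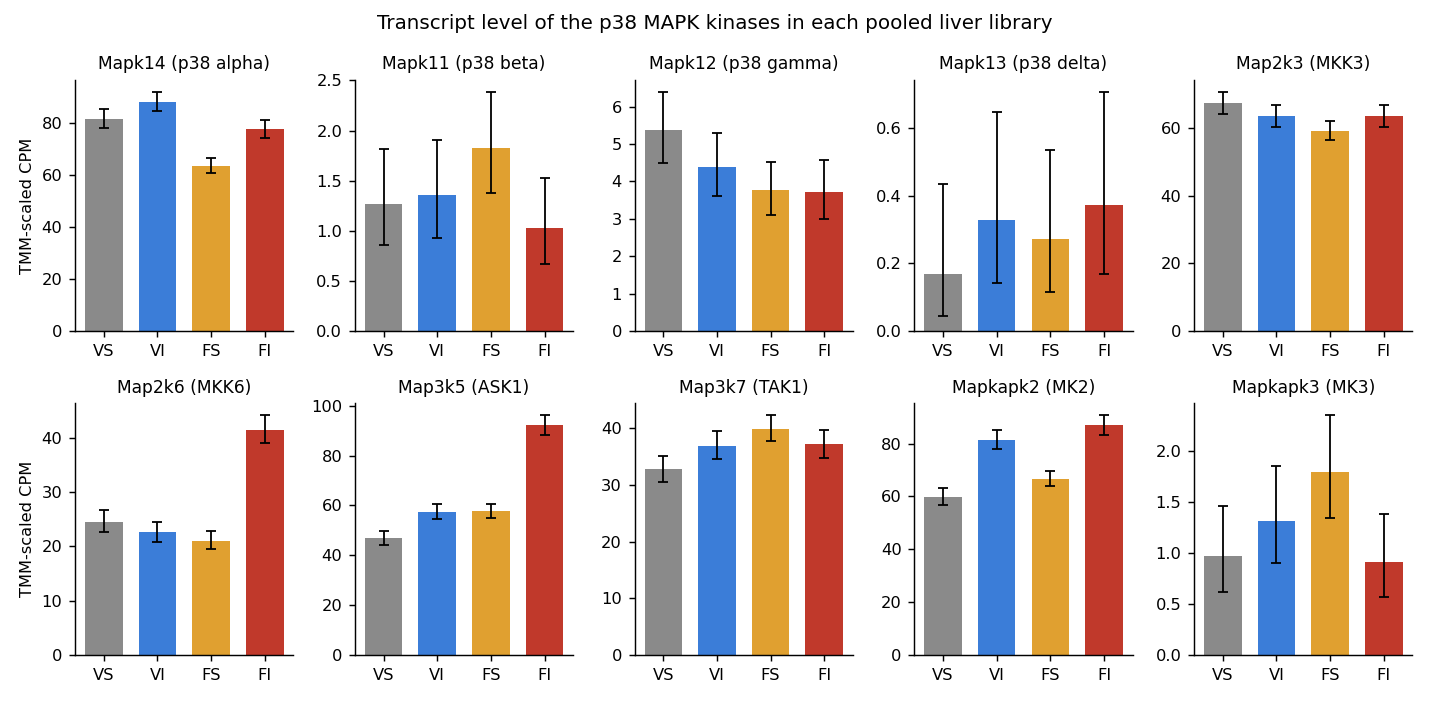
TMM-scaled CPM (vertical axes, each from 0) of each of the 10 genes in the 4 pooled libraries (horizontal axes); bars are the value of 1 library and whiskers its exact 95% Poisson interval, which covers counting error only. Map2k6 and Map3k5 are highest in FI, at 41.5 and 92.2 CPM, Mapkapk2 is higher in both IT libraries than in both sedentary ones, and Mapk14 is lowest in FS.

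Mapk14 encodes p38 alpha, the main p38 kinase of most tissues. Its level was 81.9, 88.4, 63.7 and 77.8 CPM in VS, VI, FS and FI. FS was the lowest of the 4, and both IT libraries lay above the sedentary library with the same injection. The log2 ratio was 0.11 (0.02 to 0.20) in VI/VS and 0.29 (0.20 to 0.38) in FI/FS. Both fibril libraries were below their vehicle counterpart, with log2 ratios of −0.36 (−0.46 to −0.27) in FS/VS and −0.19 (−0.28 to −0.10) in FI/VI. The summed FPKM of the 4 p38 genes followed it, with 26.5, 27.6, 21.2 and 23.7 in VS, VI, FS and FI.

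Mapk12 encodes p38 gamma, which is known for its high level in skeletal muscle. Its level was 5.38, 4.39, 3.76 and 3.72 CPM in VS, VI, FS and FI, from 127, 107, 111 and 90 counts. VS was highest, and FS and FI were close together. The log2 ratio was −0.29 (−0.68 to 0.09) in VI/VS, −0.01 (−0.43 to 0.40) in FI/FS, −0.52 (−0.90 to −0.14) in FS/VS and −0.24 (−0.66 to 0.18) in FI/VI. The sum of the skeletal muscle markers had the same order over the libraries (79.9, 10.4, 1.02 and 0.827 CPM for VS, VI, FS and FI). The full order of Mapk12 was not resolved by its counts, as only the FS/VS interval left out 0. Of the 13 markers, 12 were detected in VS and in VI, 9 in FS and 4 in FI. Singly, the 12 detected markers were all highest in VS, while 7 were lowest in FI and 2 in FS. The part of muscle RNA in the Mapk12 values was not tested.

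Mapk11 encodes p38 beta and was near the detection minimum, at 1.27, 1.36, 1.83 and 1.03 CPM in VS, VI, FS and FI, or 30, 33, 54 and 25 counts. FS was highest and FI lowest, with a log2 ratio of −0.81 (−1.57 to −0.12) in FI/FS, while the intervals of VI/VS (0.09), FS/VS (0.52) and FI/VI (−0.38) held 0. Mapk13 encodes p38 delta, and had 4, 8, 8 and 9 counts in VS, VI, FS and FI, which is 0.169, 0.328, 0.271 and 0.372 CPM. No difference between libraries was detectable at this depth, as the interval of each ratio held 0; that of VI/VS ran from −0.94 to 3.14 on the log2 scale.

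Mapkapk2 encodes MK2, the p38 effector that phosphorylates HSPB1 and the mRNA-binding protein tristetraprolin (Zfp36). Its level was 59.9, 81.4, 66.7 and 86.9 CPM in VS, VI, FS and FI, from 1415 to 2102 counts. Both IT libraries were above both sedentary libraries. The log2 ratio was 0.44 (0.34 to 0.54) in VI/VS and 0.38 (0.29 to 0.47) in FI/FS, and for the fibril injection it was smaller, 0.15 (0.06 to 0.25) in FS/VS and 0.09 (0.00 to 0.18) in FI/VI. Mapkapk3, for the related kinase MK3, was near the detection minimum with 0.974, 1.31, 1.79 and 0.909 CPM in VS, VI, FS and FI, from 23, 32, 53 and 22 counts. As with Mapk11, FS was highest and FI lowest, with log2 ratios of −0.96 (−1.77 to −0.24) in FI/FS and 0.87 (0.15 to 1.66) in FS/VS. Of 9 neutrophil markers, 8 were highest in FS too, with a sum of 18.4 CPM against 13.8 in FI, but Prtn3 alone made up 71.3% of the sum in FS and 73.3% in FI, and Ngp, Camp, Ltf, Elane and Mpo had at most 5 counts in any library. Cholangiocyte markers (5 genes) had no common order: their sum, 19.9, 18.8, 20.1 and 12.6 CPM in VS, VI, FS and FI, was mostly Spp1, while Sox9 was highest in FI at 4.01 CPM. The part of either cell type in the Mapk11 and Mapkapk3 values was not tested.

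The question of whether fibrils and IT together gave more than the sum of both was followed with the FI/FS log2 ratio minus the VI/VS log2 ratio. For Map2k6 this difference was 1.10 (0.88 to 1.32). Added on the CPM scale instead, VI plus FS less VS would give 19.1 CPM in FI, where 41.5 CPM was measured. For Map3k5 the log2 difference was 0.39 (0.24 to 0.53), with 68.1 CPM by addition of CPM and 92.2 CPM measured. For Mapkapk2 the log2 difference was −0.06 (−0.19 to 0.07), and the measured 86.9 CPM was near the 88.2 CPM by addition of CPM. On the log2 scale, Map2k3 (0.19, 0.05 to 0.33) and Mapk14 (0.18, 0.05 to 0.31) lay slightly above addition, and Map3k7 (−0.28, −0.46 to −0.09) and Mapkapk3 (−1.39, −2.43 to −0.34) below it. The intervals thus left out 0 for 6 of the 9 members that passed, where 39.2% of all genes that passed had such an interval. This difference has no test with 1 library per group.

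**Figure D3:**
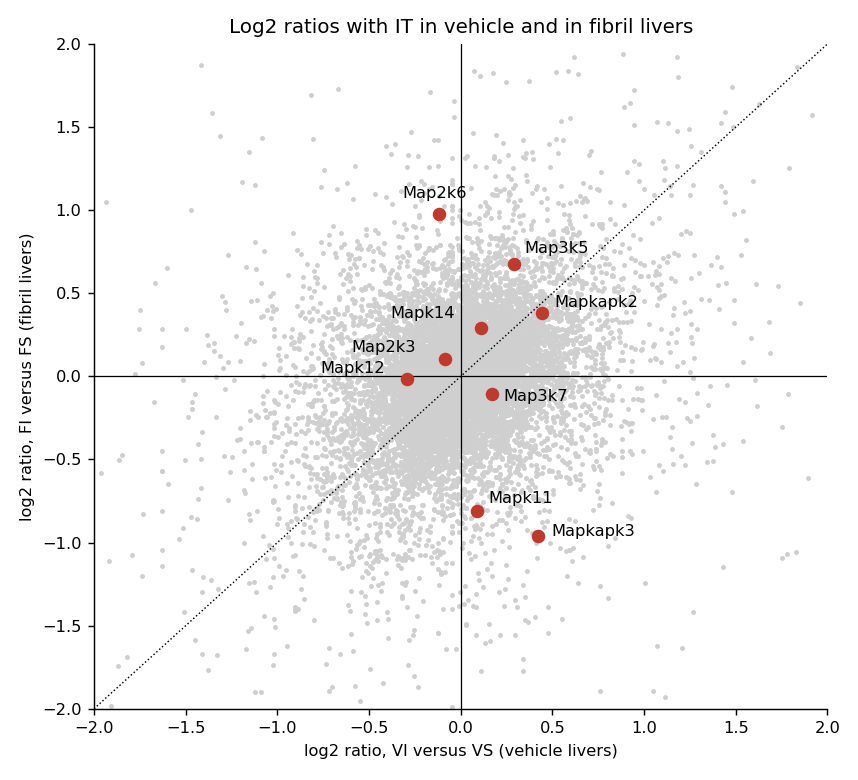
Log2 ratio VI/VS (horizontal axis) against log2 ratio FI/FS (vertical axis) for 12067 genes with both ratios between −2 and 2 (grey, 113 further genes lie outside) and the 9 members that passed (red); the dotted line marks equal ratios. Mapkapk2 lies near the line at 0.44 and 0.38, Map2k6 at −0.12 and 0.98, and Mapkapk3 at 0.42 and −0.96.

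Counted over the module, no member differed more than 2-fold in any comparison, where 3.44% of all genes did so in VI/VS, 4.28% in FI/FS, 5.8% in FS/VS and 4.54% in FI/VI. The nearest was Map2k6 in FI/FS; with scaling by total counts, Mapkapk3 passed 2-fold there, with a log2 ratio of −1.03. VI/VS and FS/VS have VS in common, and FI/FS and FI/VI have FI. In VI/VS the 9 members that passed ranged from −0.29 to 0.44 around a median of 0.11, where the median of all genes was 0.00. Intervals lay above 0 for 4 of them (Mapk14, Map3k5, Map3k7 and Mapkapk2) and below 0 for none, against 22.3% and 21.7% of all genes. In FI/FS the median was 0.10 against 0.00 for all genes (0.03 with scaling by total counts, and 0.29 with a minimum of 5 CPM), with 5 intervals above 0 (Mapk14, Map2k3, Map2k6, Map3k5 and Mapkapk2) and 2 below (Mapk11 and Mapkapk3), where all genes had 24.3% and 23.9%. In FS/VS the median was 0.15 against 0.02, with 4 above 0 (Map3k5, Map3k7, Mapkapk2 and Mapkapk3) and 4 below (Mapk14, Mapk12, Map2k3 and Map2k6), where all genes had 27.2% and 25.7%. This median turned to −0.19 with a minimum of 5 CPM, which leaves out Mapk11 and Mapkapk3. In FI/VI the median was 0.00 against 0.01, with 3 above 0 (Map2k6, Map3k5 and Mapkapk2) and Mapk14 below, where all genes had 23.1% and 23.8%.

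**Figure D4:**
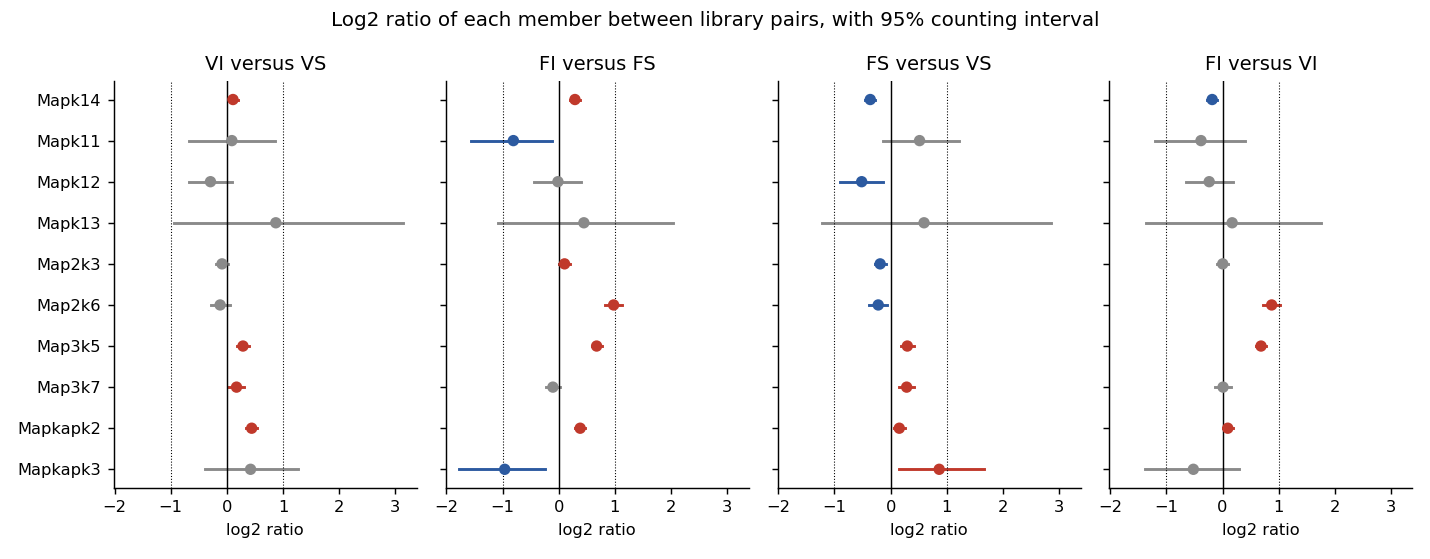
Log2 ratio (horizontal axis) of each of the 10 genes in the 4 comparisons; points are ratios of 1 library to another, lines exact 95% counting intervals, red where the interval is above 0, blue where below and grey where it holds 0, and dotted lines mark 2-fold. Map2k6 and Map3k5 lie farthest above 0 in both comparisons with FI, and the intervals of Mapk11, Mapk13 and Mapkapk3 are wide.

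A test over all 4 libraries was possible only for each factor averaged over the other, in an additive model of amyloidosis and IT that leaves 1 residual degree of freedom, and this degree of freedom is the departure from addition given above. Here and below, the factor amyloidosis stands for fibril injection, with FS and FI coded alike. It is not a measure of deposition, since the paper reports less liver amyloid in trained than in sedentary fibril-injected mice. No member passed an adjusted p of 0.05 for IT or for amyloidosis by edgeR's quasi-likelihood F-test (Benjamini-Hochberg adjustment over 11760 genes), where 1.48% of all genes did so for IT and 4.97% for amyloidosis. At an unadjusted p under 0.05 there were 2 of 9 members for each factor, where all genes had 14.7% and 21.4%, and DESeq2 and limma-voom in the same design called 0 members as well. For IT these were Map3k5, with a log2 change of 0.49 ± 0.13 (SE; edgeR adjusted p = 0.134), and Mapkapk2, with 0.41 ± 0.11 (edgeR adjusted p = 0.133), both with the IT library higher in 2 of 2 pairs. For amyloidosis they were Map3k5 with 0.49 ± 0.13 (edgeR adjusted p = 0.0705), and Mapk14 with −0.28 ± 0.11 (edgeR adjusted p = 0.202), each with the same direction in 2 of 2 pairs. Map2k6, with unlike ratios in the 2 pairs, had a log2 change of 0.44 ± 0.25 for IT (edgeR adjusted p = 0.495). These calls depended on which low genes were kept: with at least 1 count in at least 2 libraries, 17849 genes were tested, and Map3k5 passed for IT (edgeR adjusted p = 0.00464) and amyloidosis (0.00191) and Mapkapk2 for IT (0.0269).

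The rest of the pathway was followed in 56 further genes in 6 lists, of which 53 were tested in the additive model. In all of them together, edgeR called 1 gene higher and 1 lower with IT, and 6 higher and none lower with amyloidosis, at an adjusted p of 0.05. Of all genes tested, 0.765% were called higher and 0.714% lower with IT, and 2.81% higher and 2.17% lower with amyloidosis. Among 13 other activators of p38, Map3k6 (ASK2, a partner of ASK1) rose with amyloidosis (log2 change 1.59 ± 0.35, edgeR adjusted p = 0.0414). It was at 1.02, 0.985, 2.10 and 4.22 CPM in VS, VI, FS and FI, so that FI was highest here as for Map3k5. Map3k20 (ZAK), which senses stalled ribosomes, was next by size with a log2 ratio of −0.80 (−1.10 to −0.51) in FI/FS, and did not pass the test for IT (edgeR adjusted p = 0.334). The median of the list was 0.10 in VI/VS, 0.05 in FI/FS, 0.13 in FS/VS and 0.10 in FI/VI.

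Of 10 tested partners of the upstream kinases, 2 passed. Gadd45g, a stress-induced protein that binds the MAP3K MEKK4 (Map3k4), rose with both factors, with 6.65, 32.8, 60.7 and 159 CPM in VS, VI, FS and FI (edgeR adjusted p = 0.0184 for IT and 0.0031 for amyloidosis). Its relative Gadd45a fell with IT (log2 change −1.51 ± 0.25, edgeR adjusted p = 0.0299), with 4.87, 1.93, 4.95 and 1.53 CPM in VS, VI, FS and FI. The 2 genes thus went in opposite directions with IT. The medians of the list were 0.22 in VI/VS, 0.03 in FI/FS, 0.10 in FS/VS and 0.05 in FI/VI.

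Phosphatases that switch p38 off had the highest median of the 6 lists in VI/VS, 0.39 over 8 genes, with 0.17 in FI/FS, 0.11 in FS/VS and 0.13 in FI/VI. The median of all genes was 0.00, 0.00, 0.02 and 0.01 in the same order, and the difference was not tested. The largest VI/VS ratios of the list came from few counts. Dusp8 had 1.27 (0.50 to 2.14) from 48 counts over 19, and Dusp4 had 0.92 (−0.15 to 2.15) from 22 over 11. Dusp1, an immediate early gene whose product removes both phosphates from p38, rose with amyloidosis (log2 change 1.18 ± 0.16, edgeR adjusted p = 0.00795) and was 23.5, 32.6, 43.3 and 91.1 CPM in VS, VI, FS and FI. Dusp8 rose with amyloidosis too (1.96 ± 0.32, edgeR adjusted p = 0.0138), from 0.805 CPM in VS and 1.97 in VI to 5.01 in FS and 5.42 in FI. Dusp4 was below the minimum of the model, with 11, 22, 11 and 29 counts in VS, VI, FS and FI and a log2 ratio of 1.65 (0.64 to 2.84) in FI/FS.

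Of 11 substrates, 2 rose with amyloidosis. Elk1, a transcription factor of immediate early genes, had a log2 change of 1.0 ± 0.21 (edgeR adjusted p = 0.0333) and Zfp36, which was not named by the rule for list genes but is 1 of the 2 that passed, of 0.73 ± 0.12 (edgeR adjusted p = 0.0143). Hspb1 was 13.7, 6.69, 4.81 and 22.2 CPM in VS, VI, FS and FI, and did not pass for IT (edgeR adjusted p = 0.873). Its log2 ratio was −1.03 (−1.32 to −0.76) in VI/VS, 2.20 (1.93 to 2.48) in FI/FS and −1.51 (−1.81 to −1.22) in FS/VS. As for Map2k6, the FI library of Hspb1 was highest and its FS library lowest. Map2k6 was less far below VS, with −0.12 in VI/VS and −0.22 in FS/VS. By qPCR in single mice, the paper reports Hspb1 mRNA higher in VI and in FS than in VS, unlike in these libraries. Trp53, the gene of p53, had 17.1, 15.8, 14.9 and 16.0 CPM in VS, VI, FS and FI. The median of the list was 0.02 in VI/VS, 0.10 in FI/FS, 0.08 in FS/VS and 0.04 in FI/VI. Of 5 other kinases that p38 activates, none passed; the 2 with the largest log2 ratios were Rps6ka5 (MSK1) with 0.86 (−0.02 to 1.82) and Mknk2 with 0.28 (0.23 to 0.33), both in FI/VI.

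The sister modules of JNK and ERK, which share MAP3Ks with p38, gave a comparison with 7 genes that passed of 8 listed; the neuronal kinase Mapk10 did not pass. Their median log2 ratio was −0.05 in VI/VS, −0.24 in FI/FS, −0.08 in FS/VS and −0.16 in FI/VI, where the p38 module had 0.11, 0.10, 0.15 and 0.00; the difference between the modules was not tested. None passed for either factor. In FI/FS, the intervals of Mapk8 (JNK1), Mapk9 (JNK2), Mapk3 (ERK1) and Map2k1 (MEK1) were below 0, and that of Map2k2 was above 0. The largest ratio of the list, in either direction, was −0.35 (−0.50 to −0.21) for Mapk3 in VI/VS, followed by −0.34 (−0.40 to −0.28) for Map2k2 in FS/VS.

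**Figure D5:**
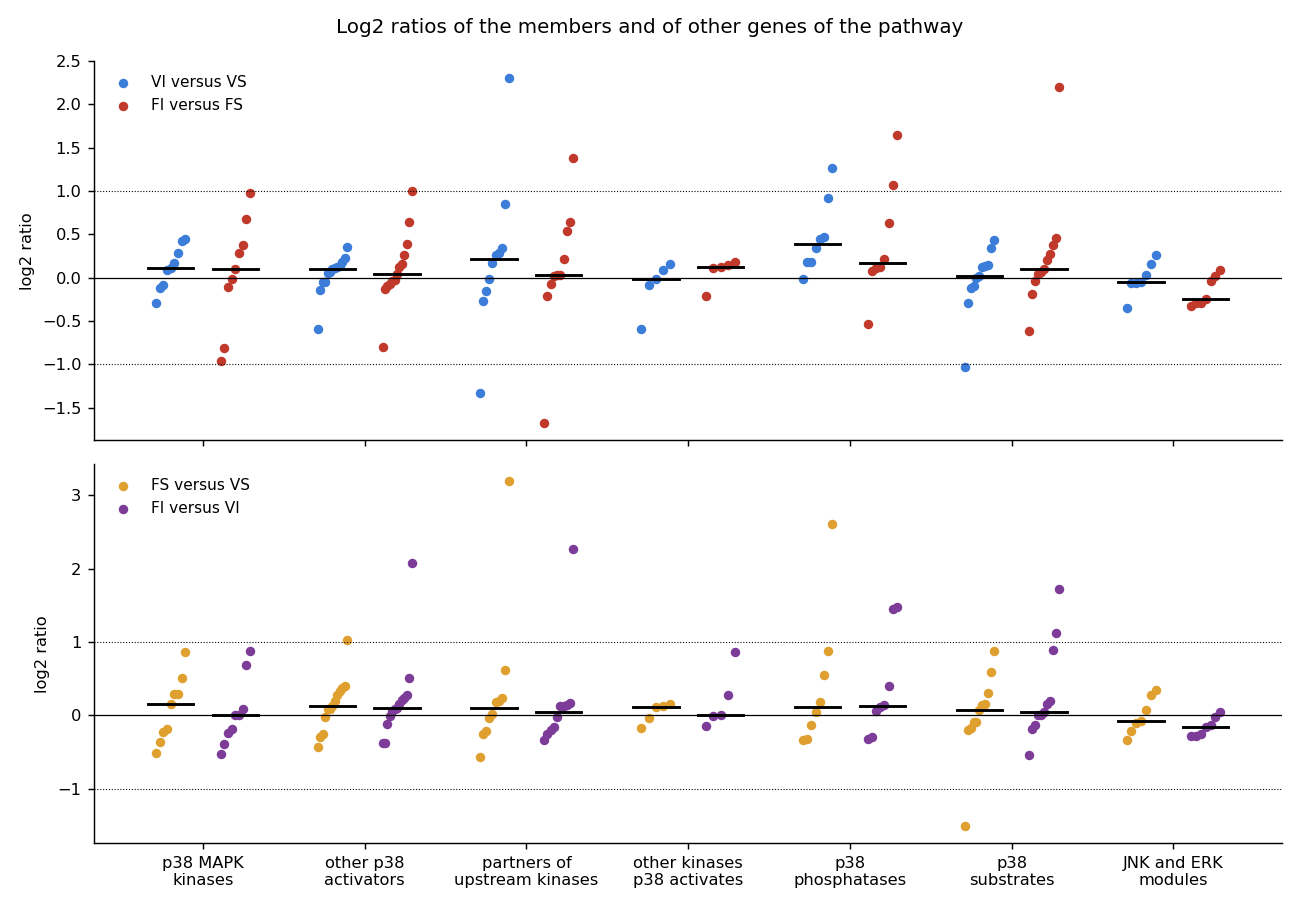
Log2 ratios (vertical axis) of the 9 members that passed and of the genes of the 6 other lists that passed (horizontal axis), in VI/VS and FI/FS (top) and in FS/VS and FI/VI (bottom); each point is a gene, black bars are medians and dotted lines mark 2-fold. The members lie within 2-fold in all comparisons, while Map3k6, Gadd45a, Gadd45g, Dusp1, Dusp4, Dusp8, Hspb1 and Elk1 pass it in at least 1.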

How the data were processed

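Liver RNA of 4 groups of mice, pooled by the authors to 1 library per group, was sequenced on an Illumina platform. The authors deposited raw read counts per gene and FPKM values; each deposited FPKM value above 0 equalled count divided by gene length and library total. The submitters' processing notes name fastp 0.23.2, STAR 2.5, HTSeq 0.6.1 and the build mm10, while the strand setting was found in no source used here.

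Counts were scaled by TMM in edgeR 4.0.16 (R 4.3.3), and ratios were formed for genes that reached 1 CPM in any library. For log2 ratios 0.5 counts were added as a prior, their intervals are conditional binomial (exact, Clopper-Pearson), and levels had exact Poisson intervals. The interval of a difference of 2 ratios came from the summed inverse counts. The additive model was fitted by robust quasi-likelihood to the 11760 genes that reached 1 CPM in 2 or more libraries, and p-values were adjusted after Benjamini and Hochberg. The fit was also tried on simulated counts, which held changes with IT but no amyloidosis effect and no departure from addition. It therefore cannot show how the fit behaves where such a departure is present. Alternatives were DESeq2 1.42.0, limma 3.58.1 (voom), total counts, FPKM with a pseudocount, other prior counts, filters and folds.

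The members and lists were chosen with earlier results of these data known. All members are named; of each list, genes beyond 2-fold in any comparison, or the 2 with the largest ratio where fewer were. Trp53, Zfp36 and the named JNK and ERK kinases beyond those were chosen after their values were seen. Of the list genes, 2 were matched by Ensembl identifier under another symbol. Promoters are from RefSeq (GRCm38.p6), and coding sequences from GENCODE M21. Python 3.11.15 with matplotlib 3.10.9 drew the figures.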

Additional observations from a re-analysis of the deposited data

Results flagged for a closer look

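The ratios of Map2k6 with fibril injection had opposite signs in sedentary and in trained livers. Its log2 ratio was −0.22 (−0.39 to −0.06) in FS/VS and 0.88 (0.72 to 1.03) in FI/VI, a difference of 1.10 on the log2 scale. The FS/VS ratio was at percentile 25.9 of all genes that passed, within their quartiles of −0.23 and 0.27. The FI/VI ratio was at percentile 96.4. Each side is 1 pooled library against another, and the difference was not tested.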

How the results depend on the processing

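With 1 pooled library per group, no library could be left out and the spread between mice is unknown; depth limits Mapk11, Mapk13 and Mapkapk3, with at most 54 counts. Of the members' log2 ratios, those of Map2k3 (0.00) and Map3k7 (0.01) in FI/VI, whose intervals held 0, changed sign under other scalings (lowest −0.02), and the median of FI/VI with them; the others kept their direction under each scaling, pseudocount and prior count tried. With a minimum of 5 CPM in any library, the median of the members was 0.29 in FI/FS and −0.19 in FS/VS, since the low genes Mapk11 and Mapkapk3 are left out. Scaling by total counts gave a median of 0.03 in FI/FS and put 1 member (Mapkapk3, log2 ratio −1.03) beyond 2-fold in FI/FS. At 1.5-fold, 4 members were beyond it in FI/FS, 1 in FS/VS and 2 in FI/VI. Those in FI/FS include the low genes Mapk11 and Mapkapk3, and the one in FS/VS is Mapkapk3. The share of all genes beyond 1.5-fold was not counted, so these numbers have no background beside them. With at least 1 count in at least 2 libraries, the additive model called 2 members for IT and 1 for amyloidosis, and 765 genes for IT and 1557 for amyloidosis, against 174 and 585; with at least 5 CPM it called 82 genes for IT. The cause was not tested. The DESeq2, limma-voom and other edgeR fits called 0 members.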
